A study of Homo sapiens with 18 samples.

Results

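The 10 genes described here encode surface molecules through which B cells hold on to, and co-stimulate, other lymphocytes: ICAM1, ICAM3, CD44, CD48 and CD58 on the adhesion side, and CD40, CD70, CD80, CD83 and CD86 on the co-stimulation side. They were chosen by name, as the rows with these symbols in the expression tables of 2 human diffuse large B-cell lymphoma lines, and make up 10 of the 23686 genes in those tables. Each of the 10 was found in the tables of both lines, and each passed the filter on low counts in both.

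ICAM1 is bound by the leukocyte integrin LFA-1, made of ITGAL and ITGB2, and this contact steadies the synapse between a T cell and the cell presenting antigen to it. CD80 and CD86 then give the second signal through CD28 (or a brake through CTLA4), while CD70 engages CD27 and CD40 receives help from CD40LG on T cells. In B cells, signals from CD40 and from the B-cell receptor reach NF-kB, a family of transcription factors for which ICAM1, CD83 and the inhibitor gene NFKBIA are well-known targets.

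RNA was sequenced from OCI-Ly1, usually classed as germinal-centre B-cell type, and TMD8, usually classed as activated B-cell type. OCI-Ly1 was kept in IMDM and TMD8 in RPMI 1640, both with serum and antibiotics, so the line and its medium cannot be told apart. The vehicle was 0.01% DMSO, and treated cells of either line received JIB-04, a small-molecule inhibitor of Jumonji histone demethylases, at 150 nM or 500 nM; the treatment time is not given in the sources used here. There were 3 libraries in each of the 6 groups, 18 in all, and the labels call them technical triplicates. The p-values below therefore measure only the spread between libraries, which may be technical. In bulk RNA, fewer cells of a kind and less RNA per cell cannot be told apart.

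Library totals were 17579732 to 32651115 estimated counts in OCI-Ly1 and 9550092 to 20509500 in TMD8. Values are given as CPM, counts scaled to the library total and a TMM factor within a line, and as the deposited TPM, which also allows for transcript length, where levels of different genes are compared. All 7 B-cell markers checked were above 3 counts in every group, with summed levels of 1557 to 1955 CPM in OCI-Ly1 and 2743 to 3480 CPM in TMD8 on a scale shared by the 18 libraries. In OCI-Ly1 the summed CPM of 8 T- or NK-cell markers was 35.9 to 39.9 with DMSO, 31.02 to 31.9 at 150 nM and 19.7 to 21.8 at 500 nM. In TMD8 the sum was 18.6 to 23.1 over the 3 groups, and TRAT1 was at 0 in both lines. From DMSO to 500 nM in OCI-Ly1, mean KLRD1 went from 16.8 to 11.1 CPM, CD3G from 13.3 to 6.01 and CD3D from 5.08 to 1.95. Mean CD3E was 0.407 and 0.416 CPM there, and NCR1 0.234 and 0.420. Mean CD8A went from 1.45 to 0.877 CPM and CD8B from 0.196 to 0.0296 CPM. KLRD1 had group means of 15.5 to 17.1 CPM in TMD8. The 8 myeloid markers summed to 1.20 to 3.61 CPM in OCI-Ly1 and 38.8 to 53.1 CPM in TMD8. CD1C made up most of the TMD8 sum, at 40.2 ± 1.62 CPM with DMSO, 46.1 ± 4.01 CPM at 150 nM and 36.1 ± 1.44 CPM at 500 nM (SD, n = 3). In TMD8 the 9 stromal, endothelial and epithelial markers summed to 25.3 to 27.4 CPM with DMSO and 55.2 to 59.2 CPM at 500 nM, while in OCI-Ly1 they summed to 17.3 to 23.3 CPM over the 3 groups. COL1A1 carried most of that TMD8 rise, at 3.67 ± 0.405 CPM with DMSO and 30.5 ± 0.525 CPM at 500 nM (SD, n = 3). The part of these genes in the results below was not tested.

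The stretches just upstream of ICAM1 and CD83 are shown because these genes had the largest rises of the 10 in OCI-Ly1, and that of CD86 because it fell there. They are RefSeq promoter windows of 250 bases, ending at the base before an annotated start site, in build GRCh38.p14. The expression tables were made on hg19, so the positions are those of the sequence table alone. Capitals mark matches to GGNNNTTCC or to its reverse complement GGAANNNCC, a loose form of the NF-kB motif.
ICAM1, chr19:10270870-10271119, plus strand: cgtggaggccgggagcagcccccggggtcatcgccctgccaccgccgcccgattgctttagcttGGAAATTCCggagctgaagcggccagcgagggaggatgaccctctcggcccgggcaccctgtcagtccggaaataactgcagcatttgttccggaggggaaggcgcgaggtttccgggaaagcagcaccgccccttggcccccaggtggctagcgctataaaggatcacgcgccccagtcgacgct
CD83, chr6:14117522-14117771, plus strand: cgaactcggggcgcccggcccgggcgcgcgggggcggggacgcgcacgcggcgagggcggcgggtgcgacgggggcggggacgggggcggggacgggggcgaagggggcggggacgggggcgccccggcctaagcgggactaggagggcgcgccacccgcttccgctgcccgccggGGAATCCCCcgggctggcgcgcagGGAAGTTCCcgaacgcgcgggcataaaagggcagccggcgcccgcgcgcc
CD86, chr3:122077534-122077783, plus strand: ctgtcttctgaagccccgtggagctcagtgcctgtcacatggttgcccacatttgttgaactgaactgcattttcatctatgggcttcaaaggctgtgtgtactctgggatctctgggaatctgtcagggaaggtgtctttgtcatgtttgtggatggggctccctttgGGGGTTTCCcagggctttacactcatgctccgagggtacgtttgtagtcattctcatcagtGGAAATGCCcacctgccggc
The ICAM1 match begins 186 bases before the start site. CD83 has matches beginning 74 and 50 bases before its start site, and CD86 has matches at 81 and 20 bases. CD58 has 1 match, at 81 bases. The windows of CD48, which also fell in OCI-Ly1, and of ICAM3 and CD80, which rose there, hold no match and are not shown. That of CD44 holds none either. Of the 10 genes, 8 were in the sequence table, with 12 windows, of which 4 held a match, against 6012 of all 35116 windows (17.1%). A match is a description of the letters, and the rise of CD83 and the fall of CD86 in OCI-Ly1 both stand beside windows that hold it. CD83 and CD86 each have a second window (chr6:14117006-14117255 and chr3:122055112-122055361), not shown, which holds no match. CD40 and CD70 were not matched.

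In untreated cells, 9 of the 10 genes were lower in OCI-Ly1 than in TMD8 and CD70 was higher. ICAM1 was 63.3-fold lower in OCI-Ly1 and CD44, a receptor for hyaluronan, was 2545-fold lower, as folds of CPM on a scale shared by both lines. In the deposited TPM both gaps were smaller: mean ICAM1 was 32.9-fold lower (0.598 against 19.7 TPM) and mean CD44 1084-fold lower (0.168 against 182.0 TPM). The median log2 difference over the 10 genes was -3.12, against -0.02 over all 16604 genes tested. All 10 passed the test, in a comparison in which 76.7% of all genes did (37.8% higher and 39.0% lower in OCI-Ly1); the libraries of the lines did not overlap for any of the 10, which held for 76.4% of all genes.

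On the TPM scale, CD70, the ligand of CD27, ranked first of the 10 in every OCI-Ly1 library, with 130.9, 125.0 and 115.0 TPM under DMSO. CD48, which binds CD244, came second there at 73.0, 72.8 and 71.2 TPM. ICAM1 stood ninth in the untreated OCI-Ly1 libraries, at 0.671, 0.490 and 0.634 TPM, and CD44 last at 0.120, 0.206 and 0.179 TPM. In TMD8, CD44 ranked first in every library, with 213.0, 168.3 and 164.6 TPM under DMSO. TMD8 had 49.8, 42.5 and 40.02 TPM of CD83, a marker of activated B cells and mature dendritic cells, and 22.01, 18.5 and 18.5 TPM of ICAM1. Neighbours in the TMD8 order, such as CD48 (46.2 ± 5.94 TPM, SD, n = 3), CD70 (45.8 ± 5.25 TPM) and CD83 (44.1 ± 5.07 TPM), lay within their spread of one another.

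**Figure D1:**
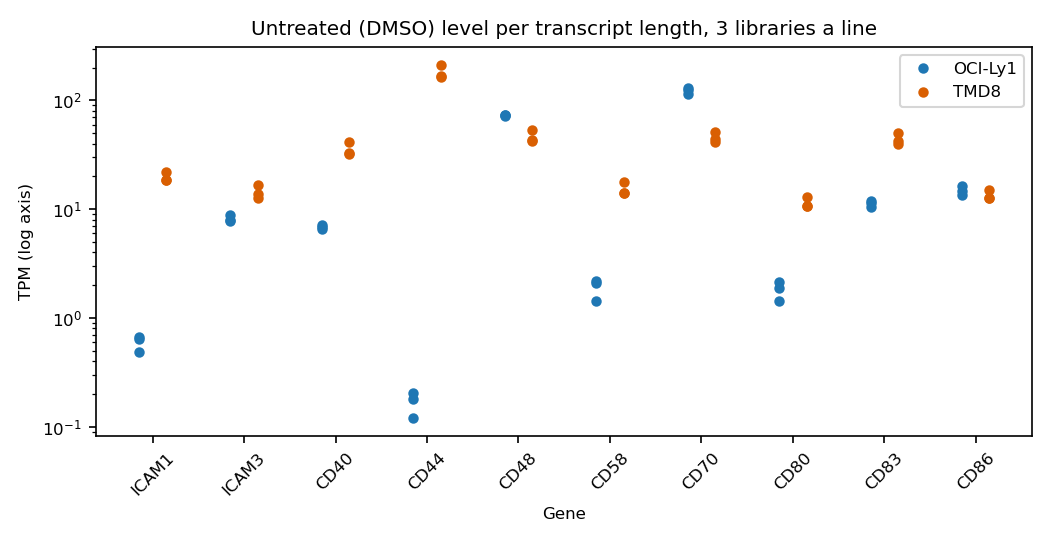
Untreated level of each of the 10 genes in TPM (log axis) in OCI-Ly1 and TMD8; points are the 3 DMSO libraries of a line. CD44 is the lowest gene in OCI-Ly1 and the highest in TMD8, and CD70 is the highest in OCI-Ly1.

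The order of the differences by fitted log2 CPM ran from CD44 (-11.31, SE 0.12, adjusted p = 8.9e-31) and ICAM1 (-5.99, SE 0.09, adjusted p = 1.1e-27) to genes whose levels were close. CD58, the ligand of CD2, was 15.5-fold lower in OCI-Ly1, CD80 12.3-fold, CD40 10.00-fold and CD83 7.55-fold. By mean TPM these 4 were lower by 8.04-fold, 6.28-fold, 5.16-fold and 3.93-fold in the same order. ICAM3, a second LFA-1 ligand that also binds CD209, was 3.44-fold lower in CPM and 1.77-fold in TPM. CD86 and CD48 differed least among the 9 lower genes (log2 -0.81, SE 0.07, and -0.33, SE 0.05), and on the TPM scale the differences turned to 0.13 (log2(TPM + 1), adjusted p = 0.19) and 0.64 (adjusted p = 3.4e-07). Over all genes the median difference was itself 0.61 on log2(TPM + 1), against -0.02 in CPM. CD70 was 1.39-fold higher in OCI-Ly1 (log2 0.48, SE 0.07, adjusted p = 3.3e-07), and 2.70-fold by mean TPM. In the deposited TPM, 4 miRNA-named loci held 0.834 to 4.95% of a library in OCI-Ly1 and 40.9 to 57.2% in TMD8, and their part in the scale differences was not tested.

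Under JIB-04 the 10 genes moved in both directions. In OCI-Ly1, 150 nM raised ICAM1 alone of the 10, whereas 500 nM raised ICAM1, CD83, CD70, CD80 and ICAM3 and lowered CD86 and CD48. In TMD8, 500 nM raised CD80, CD70, ICAM3, CD86 and CD48 and lowered ICAM1, CD40 and CD44; at 150 nM the rises of ICAM3, CD80, CD70 and CD48 and the falls of ICAM1, CD44 and CD58 passed the test. ICAM1 moved up in 1 line and down in the other.

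These counts are read against how much of the transcriptome moved. In OCI-Ly1 at 150 nM, 1 of 10 genes was called (higher), and 0.889% of all 15638 genes tested were (0.748% higher, 0.141% lower); libraries did not overlap for 2 of the 10 (1 higher, 1 lower) and for 14.0% of all genes. At 500 nM, 5 rose and 2 fell, where 53.6% of all genes were called (27.7% higher, 25.9% lower), and libraries stood apart for 8 of the 10 against 60.7%. In TMD8 at 150 nM, 4 rose and 3 fell where 44.2% of 15363 genes were called (19.2% higher, 25.0% lower), with libraries apart for 7 of 10 against 51.4%. At 500 nM, 5 rose and 3 fell where 60.7% were called (29.9% higher, 30.7% lower), with libraries apart for 9 of 10 against 66.4%. From 150 to 500 nM, 4 rose and 1 fell in OCI-Ly1, where 46.2% of all genes were called (25.1% higher, 21.1% lower) and libraries stood apart for 6 of 10 against 55.6%. In TMD8, 3 rose and 1 fell over that step, where 28.7% were called (13.7% higher, 15.0% lower) and libraries stood apart for 5 of 10 against 44.8%. At 500 nM the median log2 change of the 10 was 0.14 in each line, beside 0.00 in OCI-Ly1 and 0.04 in TMD8 over all genes. At 500 nM most genes moved, so these counts are not read as particular to the 10.

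**Figure D2:**
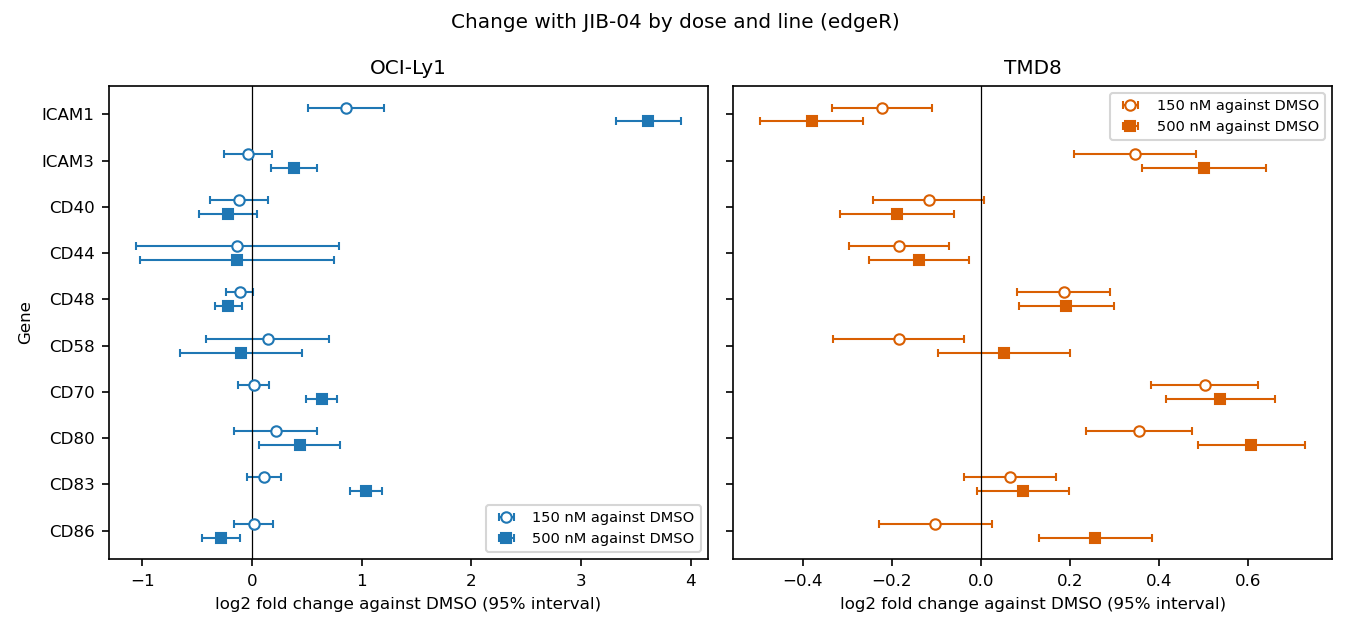
Log2 fold change against DMSO for each of the 10 genes, with 95% intervals, at 150 nM (open circles) and 500 nM (filled squares); the panels for OCI-Ly1 and TMD8 have different horizontal axes. ICAM1 at 500 nM lies at 3.61 in OCI-Ly1 and at -0.38 in TMD8.

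ICAM1 in OCI-Ly1 was near the bottom of the range with DMSO, at 1.67, 1.23 and 1.53 CPM from 42.5, 21.2 and 38.1 counts. At 150 nM it was 2.79, 2.89 and 2.45 CPM. At 500 nM it reached 18.5, 18.3 and 18.3 CPM. The 3 groups were fully separate and stepped upward with dose. The rise at 500 nM was 12.2-fold (log2 3.61, SE 0.14, adjusted p = 4.8e-13), the largest of the 10 in either line, and 500 nM exceeded 150 nM by 2.76 on the log2 scale (SE 0.13, adjusted p = 1e-11). The smaller rise at 150 nM was 1.81-fold (log2 0.86, SE 0.17, adjusted p = 0.013), and it was lost without DMSO library 2 (adjusted p = 0.068), without 150 nM library 2 (0.08), in a fit of these groups alone (0.12) and on log2(TPM + 1), centred or not (0.083 and 0.064).

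In TMD8, ICAM1 began high, at 89.6, 86.2 and 88.03 CPM with DMSO. It stood at 81.2, 72.7 and 72.7 CPM at 150 nM and at 66.04, 66.1 and 71.1 CPM at 500 nM. Every treated library lay below every DMSO library. The fall was small at 150 nM (log2 -0.22, SE 0.05, adjusted p = 0.0026) and 1.30-fold at 500 nM (log2 -0.38, SE 0.05, adjusted p = 9.8e-06). The step from 150 to 500 nM (-0.16, SE 0.06, adjusted p = 0.041) was lost without 150 nM library 1 (0.2) or without 500 nM library 1 or 2 (0.15 each). Even after its rise, ICAM1 in OCI-Ly1 remained below its level in TMD8: on the CPM scale shared by all libraries, the 500 nM groups were at 17.7 ± 0.113 in OCI-Ly1 and 69.3 ± 2.63 in TMD8 (SD, n = 3). In TPM the gap was narrower, at 8.13 ± 0.209 and 11.7 ± 1.19.

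**Figure D3:**
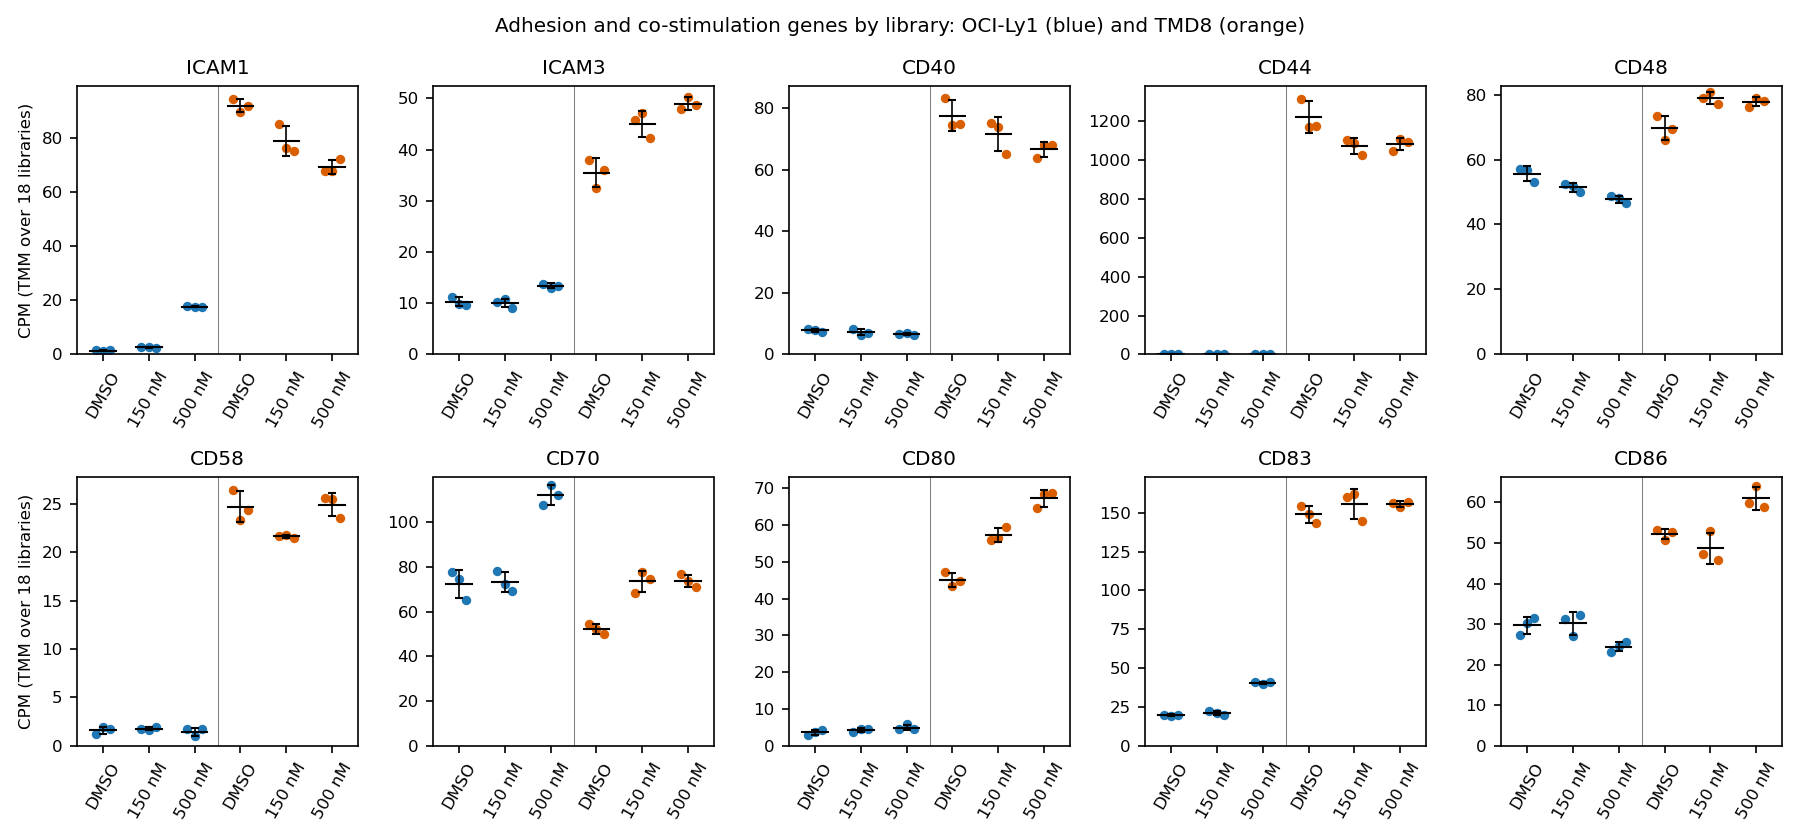
CPM of each of the 10 genes in all 18 libraries, on a scale with TMM factors shared by both lines; points are libraries, and black bars are the group mean ± SD (n = 3), with a vertical axis of its own in each panel. ICAM1 climbs with dose in OCI-Ly1 from a low start and declines from a high one in TMD8.

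ICAM3, the second ICAM of the group, was 11.6, 10.3 and 10.1 CPM with DMSO in OCI-Ly1, 10.6, 11.2 and 9.47 CPM at 150 nM, and 14.4, 13.4 and 13.9 CPM at 500 nM. Only the 500 nM libraries stood above the others (log2 0.38, SE 0.10, adjusted p = 0.004). TMD8 had 35.9, 31.1 and 34.5 CPM with DMSO, 43.6, 44.8 and 40.8 CPM at 150 nM, and 46.7, 49.0 and 47.8 CPM at 500 nM. There the gene was already higher at 150 nM (0.35, SE 0.07, adjusted p = 0.00033) and reached 1.41-fold at 500 nM (0.50, SE 0.07, adjusted p = 3.4e-06).

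CD48 moved little and in opposite directions. OCI-Ly1 went from 59.0, 59.1 and 55.2 CPM with DMSO through 54.2, 53.98 and 51.8 CPM at 150 nM to 50.7, 50.03 and 48.5 CPM at 500 nM, a fall of 1.16-fold at the higher dose (log2 -0.22, SE 0.06, adjusted p = 0.005). TMD8 went from 69.5, 63.4 and 66.7 CPM to 75.3, 77.01 and 74.6 CPM at 150 nM and 74.3, 76.9 and 76.7 CPM at 500 nM (log2 0.19 at both doses, SE 0.05, adjusted p = 0.0054 and 0.0031). The DMSO and 500 nM libraries were apart in each line. The fall in OCI-Ly1 was lost with scaling by library size alone (adjusted p = 0.071) and on the TPM scale (0.24). The rise in TMD8 turned to -0.16 on log2(TPM + 1).

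CD44 and CD58 were low in OCI-Ly1 in every group and moved little in TMD8. CD44 in OCI-Ly1 had 9.34, 11 and 13.2 counts with DMSO and 18.2, 8 and 15.2 counts at 500 nM, so a change from -1.02 to 0.75 on the log2 scale was within the 95% interval. TMD8 had 1246, 1124 and 1131 CPM of CD44 with DMSO, 1053, 1037 and 991.9 CPM at 150 nM, and 1023, 1082 and 1074 CPM at 500 nM. All 6 treated TMD8 libraries were below all 3 DMSO libraries, with log2 changes of -0.18 (SE 0.05, adjusted p = 0.0091) and -0.14 (SE 0.05, adjusted p = 0.031). The 500 nM call was lost without DMSO library 1 (0.068), without any 1 of the 500 nM libraries (0.051 to 0.13) and with scaling by library size alone (0.36). The 150 nM call was lost without 150 nM library 3 (0.079), with scaling by library size alone (0.07) and in a fit of these groups alone (0.075).

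CD58 in OCI-Ly1 was 1.05 to 2.02 CPM over the 9 libraries, and the groups overlapped. In TMD8 it was 25.01, 22.4 and 23.3 CPM with DMSO, 20.68, 20.72 and 20.74 CPM at 150 nM, and 24.98, 24.8 and 23.1 CPM at 500 nM. The 150 nM libraries were the lowest, and the 500 nM libraries overlapped those with DMSO. The fall at 150 nM (log2 -0.18, SE 0.07, adjusted p = 0.039) was lost in 9 of 14 alternatives, among them each of the 3 that left out a 150 nM library. At 500 nM the 95% interval ran from -0.10 to 0.20.

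CD83 rose in OCI-Ly1, and its change in TMD8 missed the test. OCI-Ly1 had 20.6, 19.8 and 20.9 CPM with DMSO, 23.4, 22.1 and 20.8 CPM at 150 nM, and 42.5, 41.4 and 42.4 CPM at 500 nM. The DMSO and 150 nM libraries overlapped, and the 500 nM libraries stood well apart from both (2.06-fold, log2 1.04, SE 0.07, adjusted p = 1.1e-09). TMD8 began with 146.3, 143.0 and 137.5 CPM and had 152.7, 154.4 and 139.8 CPM at 150 nM and 152.1, 149.6 and 154.2 CPM at 500 nM. The 500 nM libraries lay just above those with DMSO, and the difference missed the threshold (log2 0.10, 95% interval -0.01 to 0.20, adjusted p = 0.1); it was called with scaling by library size alone (0.00099) and in a fit of these groups alone (0.028), and turned to -0.30 on log2(TPM + 1) (0.017).

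CD70, a TNF-family ligand, was the member already most abundant in OCI-Ly1. It was 80.1, 77.5 and 68.1 CPM with DMSO, 80.8, 75.4 and 71.9 CPM at 150 nM, and 112.2, 121.5 and 116.6 CPM at 500 nM. The lower dose overlapped DMSO (log2 0.02, 95% interval -0.13 to 0.16), and the higher dose was 1.55-fold above it (0.63, SE 0.07, adjusted p = 3.7e-07). In TMD8 the values were 51.4, 50.1 and 47.8 CPM with DMSO, 65.2, 73.8 and 71.9 CPM at 150 nM, and 74.7, 71.5 and 69.7 CPM at 500 nM. There both doses were apart from DMSO and overlapped each other, with log2 changes of 0.50 (SE 0.06, adjusted p = 2.1e-06) and 0.54 (SE 0.06, adjusted p = 3e-07).

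CD80 and CD86, which share CD28 and CTLA4 as receptors, rose together in TMD8 at 500 nM and parted in OCI-Ly1. CD80 in TMD8 was 44.7, 41.7 and 42.9 CPM with DMSO, 53.4, 53.8 and 57.5 CPM at 150 nM, and 62.9, 66.6 and 67.5 CPM at 500 nM. The 3 groups were separate and ascended with dose (log2 0.35, SE 0.06, adjusted p = 6.8e-05, then 0.61, SE 0.06, adjusted p = 4.9e-08). In OCI-Ly1, CD80 was 3.01, 4.05 and 4.40 CPM with DMSO and 4.74, 6.12 and 4.64 CPM at 500 nM, apart by a small margin. This rise (0.43, SE 0.17, adjusted p = 0.043) was lost without DMSO library 1 (0.23) or 2 (0.057), without 500 nM library 1 (0.051) or 2 (0.19), with DESeq2 (0.058) and on centred TPM (0.23).

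CD86 in TMD8 was 50.4, 48.7 and 50.6 CPM with DMSO, 44.99, 50.4 and 44.3 CPM at 150 nM, and 58.4, 62.4 and 57.9 CPM at 500 nM. The 150 nM libraries reached into the DMSO range, and the 500 nM libraries were above both (log2 0.26, SE 0.06, adjusted p = 0.0013). OCI-Ly1 had 28.4, 31.6 and 32.9 CPM with DMSO, 32.3, 28.1 and 33.5 CPM at 150 nM, and 24.2, 25.6 and 26.5 CPM at 500 nM. Here the 500 nM libraries were the lowest (-0.28, SE 0.08, adjusted p = 0.0078). The OCI-Ly1 fall was lost with scaling by library size alone (adjusted p = 0.054) and on the TPM scale (0.26), and the TMD8 rise turned to -0.11 on log2(TPM + 1).

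CD40, the receptor for T-cell help, was 8.49, 8.16 and 7.51 CPM with DMSO in OCI-Ly1 and 6.88, 7.28 and 6.59 CPM at 500 nM. The libraries were apart, but the difference did not pass the test (log2 -0.22, 95% interval -0.48 to 0.04, adjusted p = 0.15). TMD8 had 78.9, 71.5 and 71.8 CPM with DMSO and 62.2, 66.1 and 66.9 CPM at 500 nM. This fall of similar fitted size was called (-0.19, SE 0.06, adjusted p = 0.013), and the call was lost without 500 nM library 1 (0.075) and with scaling by library size alone (0.13).

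On the TPM scale the TMD8 rises at 500 nM were weaker as a group. The log2(TPM + 1) change over all genes had a median of -0.22 there, against 0.04 in CPM, and the rises of ICAM3, CD70 and CD80 missed the threshold (adjusted p = 0.34, 0.18 and 0.088). Once each library was centred on its median, ICAM3, CD70, CD80 and CD86 were again called higher, and CD48 was not (0.1). The ICAM1 changes at 500 nM kept their direction and their call in all 14 alternatives in each line, with log2 values of 2.29 to 3.70 in OCI-Ly1 and -0.75 to -0.29 in TMD8. The rises of CD83 and CD70 in OCI-Ly1 also held in all 14, from 0.88 to 1.17 and from 0.54 to 0.77.

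The lines were then compared directly: the response of TMD8 was subtracted from that of OCI-Ly1 on the log2 scale. At 500 nM the response differed for 4 of the 10 genes, 2 in each direction, where 46.4% of all 16604 genes tested differed (28.2% more upward in OCI-Ly1, 18.1% in TMD8). ICAM1 differed most (4.02, SE 0.12, adjusted p = 2.4e-18), followed by CD83 (0.98, SE 0.08, adjusted p = 4.3e-10). CD86 (-0.51, SE 0.10, adjusted p = 0.00027) and CD48 (-0.38, SE 0.08, adjusted p = 0.00024) responded more upward in TMD8, though on log2(TPM + 1) the CD86 difference was lost (adjusted p = 0.91) and that of CD48 turned to 0.10. For CD70 the 500 nM responses differed by 0.13 (95% interval -0.06 to 0.32, adjusted p = 0.27), though on log2(TPM + 1) that difference was called (0.61, adjusted p = 0.00016). For CD80 they differed by -0.14 (-0.46 to 0.17). Over all genes the median difference at 500 nM was 0.38 on log2(TPM + 1), against 0.05 in CPM. The ICAM1 difference was called in all 20 alternatives, from 2.77 to 4.32.

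At 150 nM the response differed for 4 of the 10, 1 more upward in OCI-Ly1 and 3 in TMD8, where 23.3% of all genes did (15.0% and 8.33%). ICAM1 responded more upward in OCI-Ly1 (1.08, SE 0.16, adjusted p = 3e-05). CD70 (-0.48, SE 0.09, adjusted p = 0.00054), ICAM3 (-0.37, SE 0.12, adjusted p = 0.024) and CD48 (-0.29, SE 0.08, adjusted p = 0.0064) responded more upward in TMD8. The call for ICAM3 was lost without OCI-Ly1 DMSO library 1, OCI-Ly1 150 nM library 3, TMD8 DMSO library 2 or TMD8 150 nM library 2 (adjusted p = 0.062 to 0.098). Those for CD70, ICAM3 and CD48 were lost on the TPM scale (0.071, 0.3 and 0.47 with log2(TPM + 1)).

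Across the 9 libraries of a line, some of the other members followed ICAM1 and some ran against it, as a description over libraries that share the same 3 treatments. In OCI-Ly1, Pearson's r of log2 CPM with ICAM1 was 0.989 for CD83, 0.948 for CD70 and 0.896 for ICAM3, and -0.875 for CD48. In TMD8 the values for the same genes were -0.531, -0.917, -0.871 and -0.779. CD40 went with ICAM1 in TMD8 (0.846) and not in OCI-Ly1 (-0.614). CD80 ran against ICAM1 in TMD8 (-0.927) and not in OCI-Ly1 (0.637). CD86 ran against it in both (-0.831 in OCI-Ly1 and -0.589 in TMD8), and CD44 was at 0.717 in TMD8. The coefficients were weak for CD44 (-0.166) and CD58 (-0.332) in OCI-Ly1 and for CD58 in TMD8 (-0.094).

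Among 10289 genes ranked by the smaller of their correlations with ICAM1 in the 2 lines, NFKBIA came first (r = 0.976 in OCI-Ly1 and 0.983 in TMD8). NFKBIA encodes the inhibitor that holds NF-kB in the cytoplasm. Next were TUBB2A, a beta-tubulin, ERGIC1, a protein of the compartment between endoplasmic reticulum and Golgi, IRF4, a transcription factor of activated B cells and plasma cells, and SEPT11, a septin. The smaller of the 2 coefficients was 0.963 to 0.976 for these 5. They were ranked on that likeness, over 9 libraries a line that share 3 treatments, so it is a description.

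In OCI-Ly1, NFKBIA stood at 57.9 ± 2.12 CPM in vehicle, then 59.2 ± 2.19 and 137.2 ± 4.07 CPM with rising dose (SD, n = 3). The TMD8 means, in the same order, were 146.8 ± 7.72, 120.6 ± 8.22 and 106.1 ± 3.35 CPM. IRF4 was 230.4 ± 13.5, 237.8 ± 8.90 and 441.0 ± 17.4 CPM in OCI-Ly1 and 2735 ± 145.2, 2203 ± 146.8 and 1735 ± 3.90 CPM in TMD8. Both therefore had the same order of groups as ICAM1 in each line. At 500 nM all 5 genes were called higher in OCI-Ly1 (log2 0.40 to 1.25) and lower in TMD8 (-0.71 to -0.47). These directions follow from picking genes that resemble ICAM1 in both lines. At 150 nM in OCI-Ly1 their log2 changes were 0.03 to 0.25, with adjusted p from 0.085 (TUBB2A) to 0.89 (NFKBIA), beside 0.86 for ICAM1.

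**Figure D4:**
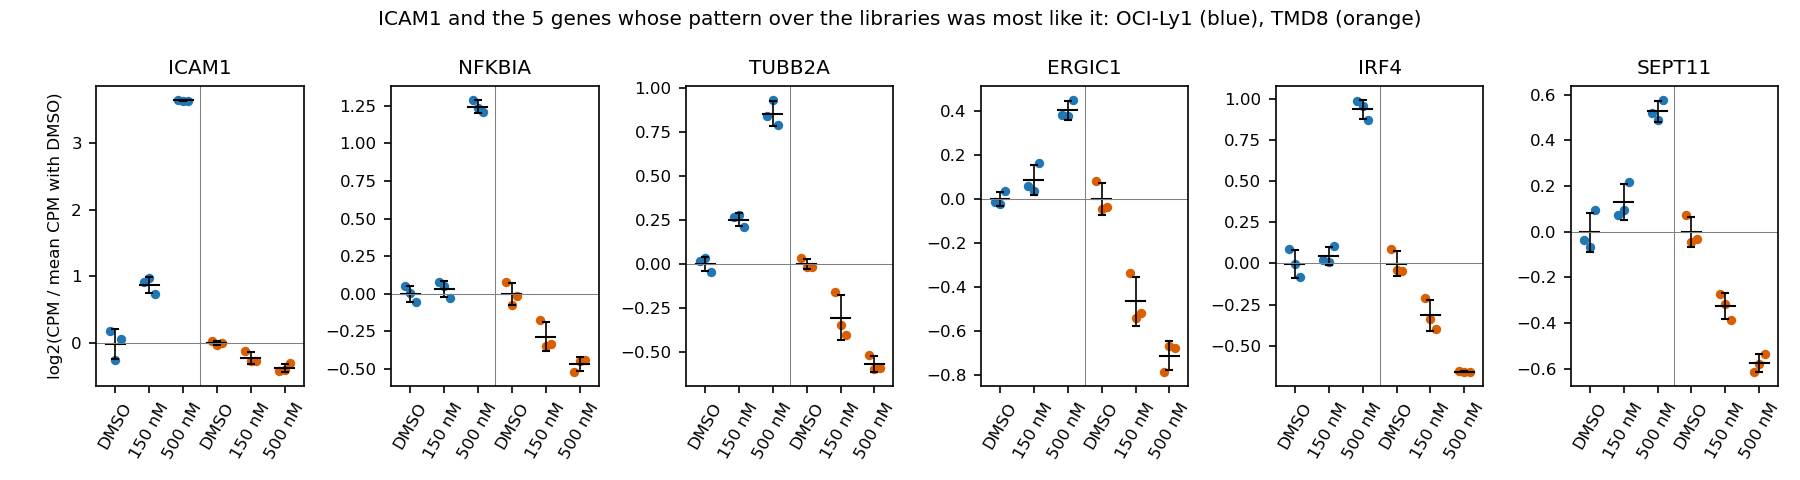
Level of ICAM1 and of the 5 genes most like it in each library, as log2 of CPM over the mean DMSO CPM of the line; points are libraries, black bars are the group mean ± SD (n = 3), and each panel has its own vertical axis. The 500 nM groups lie above DMSO in OCI-Ly1 and below it in TMD8 in every panel; the 5 genes were picked for this likeness.

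The receptors that the 10 molecules bind were also measured, several of which are chiefly T- or NK-cell genes. At 500 nM, 2 rose and 4 fell of 8 tested in OCI-Ly1 (median log2 change -0.20), and 1 rose and 1 fell of 5 tested in TMD8 (median 0.35), where 53.6% and 60.7% of all genes were called. ITGAL, the alpha chain of LFA-1, fell in both lines: from 191.0 ± 5.22 to 153.6 ± 2.20 CPM in OCI-Ly1 (log2 -0.32, SE 0.05, adjusted p = 7.1e-05) and in the other line from 167.8 ± 12.03 to 113.8 ± 3.90 CPM (-0.56, SE 0.06, adjusted p = 1e-07). CD27, the receptor of CD70, fell in OCI-Ly1 from 64.6 ± 3.81 to 52.2 ± 0.585 CPM (-0.31, SE 0.06, adjusted p = 0.00029), while it was near 1 CPM in TMD8.

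ITGB2, the beta chain of LFA-1, was singled out after its values were seen. OCI-Ly1 had 1, 0 and 0 counts with DMSO, 1, 3 and 5 counts at 150 nM, and 63, 61 and 55 counts at 500 nM (adjusted p = 1.5e-07 against DMSO). TMD8 had 25.01, 22.2 and 24.7 CPM with DMSO and 20.04, 22.1 and 25.4 CPM at 500 nM, which overlapped. So in OCI-Ly1 the 2 chains of LFA-1 moved in opposite directions, with ITGB2 still far below ITGAL in CPM. CD2, the receptor of CD58, fell from 18, 8 and 23 counts to 2, 1 and 2 counts in OCI-Ly1 (adjusted p = 2.2e-05). Of the T- and NK-cell markers given above, KLRD1, CD3G, CD3D, CD8A and CD8B had lower means there at 500 nM than with DMSO. CD3E and NCR1 did not. CD3E, NCR1 and CD8B had at most 15 counts a library. The part of these markers in the receptor changes was not tested. CD28 fell as well (log2 -1.04, adjusted p = 0.0029), from 2.30, 1.70 and 2.02 CPM to 1.10, 1.20 and 0.659 CPM. The rises of CD244 in OCI-Ly1 (adjusted p = 0.018) and CD209 in TMD8 (0.022) were lost without some single libraries (OCI-Ly1 DMSO library 3 or 500 nM library 2 for CD244, and TMD8 DMSO library 1 or 500 nM library 1 for CD209; adjusted p = 0.057 to 0.083). CTLA4 had at most 2.02 counts in a library and was not tested.

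Other adhesion molecules, and the linkers that tie them to actin, moved in both directions. In OCI-Ly1 at 500 nM, 8 rose and 7 fell of 27 tested (median 0.01), and in TMD8 7 rose and 11 fell of 28 (median -0.05). These calls make up shares near those over all genes, 53.6% in OCI-Ly1 and 60.7% in TMD8. L1CAM rose in both lines, in TMD8 from 15.3 ± 0.809 to 38.6 ± 1.78 CPM (log2 1.33, SE 0.07, adjusted p = 3.1e-11). In OCI-Ly1 it had few counts, 2 to 5 a library with DMSO and 28 to 38 at 500 nM. ITGA4, the alpha chain of the VCAM1 receptor, fell in TMD8 from 167.9 ± 12.8 to 87.97 ± 3.97 CPM (-0.93, SE 0.06, adjusted p = 1e-09) and was 140.0 ± 5.80 and 141.2 ± 4.64 CPM in OCI-Ly1. PECAM1 fell in OCI-Ly1 (-0.92, SE 0.13, adjusted p = 1.8e-05) and MCAM rose there (0.88, SE 0.13, adjusted p = 2.8e-05). The fall of MCAM in TMD8 (-0.32, adjusted p = 0.039) was lost without DMSO library 3 (0.16) or without 500 nM library 2 (0.072) or 3 (0.15).

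Of the other co-stimulatory and co-inhibitory molecules, more rose than fell in TMD8 at both doses. There 14 rose and 1 fell of 23 tested at 500 nM, with a median of 0.49, and 15 rose and 1 fell at 150 nM, with a median of 0.37; 9 were called at 150 nM on log2(TPM + 0.1). Over all TMD8 genes, 29.9% were called higher and 30.7% lower at 500 nM, and 19.2% and 25.0% at 150 nM. In OCI-Ly1 9 rose and 6 fell of 21 at 500 nM (median 0.18), where 27.7% and 25.9% of all genes did. At 150 nM 1 was called, and that count was 0 without DMSO library 1 or 3 or without 150 nM library 2 or 3, and 3 without 150 nM library 1. FAS, the death receptor, rose from 0.947 ± 0.174 to 6.41 ± 1.27 CPM in OCI-Ly1 (log2 2.77, SE 0.22, adjusted p = 7.9e-09) and in the other line from 5.49 ± 0.865 to 25.1 ± 1.13 CPM (2.20, SE 0.10, adjusted p = 8.2e-12). LY9, a SLAM-family relative of CD48, rose from 26.05 ± 1.45 to 51.1 ± 1.44 CPM in OCI-Ly1 (0.97, SE 0.07, adjusted p = 6e-09) and in the other line from 2.49 ± 0.530 to 20.1 ± 2.16 CPM (2.99, SE 0.17, adjusted p = 1.2e-10). ICOSLG, a B7-family ligand like CD80 and CD86, rose from 6.97 ± 0.208 to 25.1 ± 3.84 CPM in TMD8 (1.83, SE 0.11, adjusted p = 1.8e-10) and also rose in OCI-Ly1 (1.38, SE 0.21, adjusted p = 2.2e-05). TNFRSF17, the plasma-cell receptor BCMA, rose from 47.5 ± 6.58 to 128.0 ± 3.68 CPM in OCI-Ly1 (1.44, SE 0.08, adjusted p = 6.4e-11).

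Genes that carry the CD40 signal moved in both directions. At 500 nM, 7 rose and 2 fell of 16 in OCI-Ly1 (median 0.12), and 3 rose and 2 fell in TMD8 (median 0.02), beside 53.6% and 60.7% of all genes called. The TMD8 count of 5 became 8 with scaling by library size alone and 12 on log2(TPM + 1), and the OCI-Ly1 count of 9 became 5 on centred TPM. JAK3, a kinase bound to CD40, rose from 7.05 ± 1.44 to 17.4 ± 0.954 CPM in OCI-Ly1 (log2 1.31, SE 0.14, adjusted p = 7e-07) and was 81.3 ± 1.84 and 81.1 ± 3.65 CPM in TMD8. TRAF5, an adaptor of CD40, fell in OCI-Ly1 (-0.58, SE 0.07, adjusted p = 2.1e-06). BIRC3, a ubiquitin ligase and NF-kB target, fell in TMD8 from 100.9 ± 8.08 to 44.5 ± 2.46 CPM (-1.17, SE 0.08, adjusted p = 5.3e-10) and was 236.0 ± 22.3 and 241.2 ± 8.08 CPM in OCI-Ly1. Its relative BIRC2 rose in OCI-Ly1 (0.48, SE 0.06, adjusted p = 3.7e-06). In TMD8, of the 2 kinases that release NF-kB from its inhibitors, IKBKB rose (0.43, SE 0.05, adjusted p = 1.3e-06, lost on log2(TPM + 1) at 0.69) and CHUK fell (-0.37, SE 0.06, adjusted p = 3.7e-05).

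Of 11 NF-kB subunits and inhibitors, 8 rose and 1 fell in OCI-Ly1 at 500 nM (median 0.45), and 5 rose and 3 fell in TMD8 (median 0.01). Of all genes, 27.7% were called higher and 25.9% lower in OCI-Ly1, and 29.9% and 30.7% in TMD8. TNFAIP3, which switches the pathway off, rose from 12.4 ± 0.515 to 34.5 ± 1.95 CPM in OCI-Ly1 (log2 1.48, SE 0.08, adjusted p = 4.8e-11) and was 177.1 ± 8.48 and 177.7 ± 4.76 CPM in TMD8. REL, a subunit, fell from 108.8 ± 5.57 to 60.5 ± 1.93 CPM in OCI-Ly1 (-0.85, SE 0.06, adjusted p = 9.5e-10) and rose from 64.9 ± 1.77 to 99.3 ± 2.73 CPM in TMD8 (0.61, SE 0.06, adjusted p = 6.2e-08, lost on log2(TPM + 1) at 0.061). BCL3, a nuclear cofactor, went the other way, up in OCI-Ly1 (1.02, SE 0.23, adjusted p = 0.0011) and down in TMD8 (-0.73, SE 0.05, adjusted p = 1.8e-09). NFKBIE rose in TMD8 (0.74, SE 0.05, adjusted p = 5.3e-10).

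The genes beside ICAM1 on chromosome 19 were examined after its values were seen. RefSeq places ICAM4 and ICAM5 next to ICAM1 and ICAM3 a few genes further on; the strand of counting is not given in the sources used here, so overlapping and antisense genes cannot be told apart. In OCI-Ly1 at 500 nM, MRPL4 on one side was at 0.06 (SE 0.07, adjusted p = 0.48) and ICAM4 on the other at -0.21 (SE 0.16, adjusted p = 0.28). ICAM5 rose from 1.60 ± 0.0166 to 4.80 ± 0.604 CPM (log2 1.59, SE 0.22, adjusted p = 7.6e-06). ZGLP1 (0.64), FDX1L (0.53) and TYK2 (0.48) also rose, and RAVER1 was at 0.04. In TMD8, MRPL4 (-0.84, SE 0.05) and RAVER1 (-0.63, SE 0.05) fell, as ICAM1 did, and so did CDC37 (-0.25, SE 0.05). ICAM3 (0.50, SE 0.07), TYK2 (0.14, SE 0.05) and ICAM5 (0.30, SE 0.12, adjusted p = 0.042) rose there. The ICAM5 call was lost without DMSO library 1 or 2 or 500 nM library 1 or 2 (adjusted p = 0.097 to 0.21), and its change turned to -0.05 on log2(TPM + 1). That of TYK2 was lost without 500 nM library 1 or 2 (0.071 and 0.06), and its change turned to -0.23 on log2(TPM + 1). Of the genes from MRPL4 to CDC37 in the tables, ICAM1 had the largest change in OCI-Ly1. Its neighbour ICAM5 had means of 0.695 TPM with DMSO and 2.30 TPM at 500 nM there, beside 0.598 and 8.13 TPM for ICAM1.

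**Figure D5:**
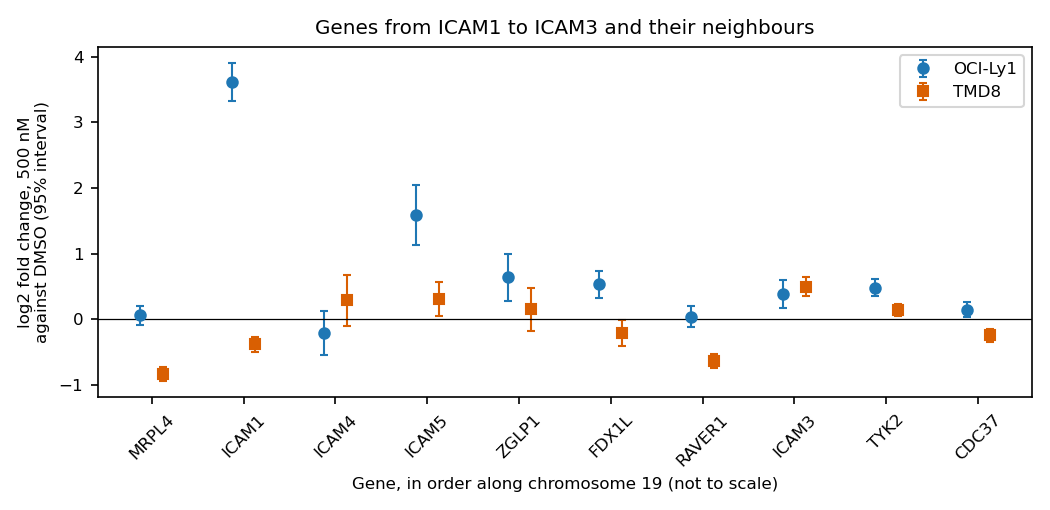
Log2 fold change at 500 nM against DMSO, with 95% intervals, for the genes from MRPL4 to CDC37 in their order on chromosome 19 (not to scale), in OCI-Ly1 and TMD8. ICAM1 in OCI-Ly1, at 3.61, lies above its neighbours, of which ICAM5 is next at 1.59.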

How the data were processed

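Total RNA was depleted of ribosomal RNA and sequenced as paired-end libraries, per the labels' protocols. The authors deposited, for each line, a table of estimated counts and a table of TPM for 23686 gene symbols. Per the submitters' processing notes, kallisto 0.46.0, R 4.3.1, DESeq2 1.40.2 and hg19 were used; the step from transcripts to genes is not given in the sources used here. Replicates of a group agreed no closer than sampling noise allows (chi-square per degree of freedom 1.65 to 11.4 over 18 pairs), so each of the 18 libraries was kept.

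Estimated counts were rounded and tested with edgeR 4.0.16 (R 4.3.3): TMM, filterByExpr by group, and the quasi-likelihood test over the 9 libraries of a line, or over all 18 for differences between lines. P-values were adjusted by Benjamini-Hochberg over all genes tested, with 0.05 as the threshold for a call. Standard errors were derived from the F statistic. In simulated counts with a single fixed spread, most changes of 1 on the log2 scale were recovered, in genes with ample counts. Recovery of smaller changes is not given here, and genes with few counts were not changed in the simulation. Alternatives used DESeq2 1.42.0, scaling by library size alone, no filter, limma 3.58.1 on log2(TPM + 1), log2(TPM + 0.1) and centred log2(TPM + 1), a replicate block, the compared groups alone, and each library left out in turn. The TPM values were otherwise used as the authors deposited them.

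The members and gene lists were chosen with earlier results of these data known, and support nothing as independent evidence. Besides the 10 genes, at most 3 called genes were named per list and line, those with the largest change at 500 nM with 5 CPM or more on average in some group, and the 5 genes most like ICAM1. One gene that this rule takes is not reported here. Other genes named are said to be chosen after their values were seen, or are given to explain a count of 5 or fewer.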

Additional observations from a re-analysis of the deposited data

Results flagged for a closer look

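Each gene here answered JIB-04 differently in the 2 lines, by a test of the difference itself (the change in OCI-Ly1 minus that in TMD8, edgeR, 3 libraries a group). At 150 nM this held for ICAM1 at 1.08 (SE 0.16, adjusted p = 3e-05), CD70 at -0.48 (SE 0.09, adjusted p = 0.00054), CD48 at -0.29 (SE 0.08, adjusted p = 0.0064) and ICAM3 at -0.37 (SE 0.12, adjusted p = 0.024). At 500 nM it held for ICAM1 at 4.02, CD83 at 0.98, CD86 at -0.51 and CD48 at -0.38. Of all genes, 23.3% differed at 150 nM and 46.4% at 500 nM. On log2(TPM + 1) the calls for CD70, CD48 and ICAM3 at 150 nM and for CD86 at 500 nM were lost. The CD48 difference at 500 nM turned sign there, and the ICAM3 call was also lost without some single libraries.

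Further genes named in the report are listed here because they were called in opposite directions in the lines at 500 nM. The direction of each difference below was set by that choice, and its adjusted p-value is no separate evidence. Among those that resemble ICAM1 over libraries, the differences were 1.75 (SE 0.08) for NFKBIA, 1.62 (SE 0.08) for IRF4, 1.45 (SE 0.10) for TUBB2A, 1.14 (SE 0.09) for ERGIC1 and 1.13 (SE 0.09) for SEPT11. These 5 were picked for following ICAM1 in both lines, so the direction of their differences was set by that choice. The NF-kB cofactor BCL3 differed by 1.76 (SE 0.18, adjusted p = 2e-08) and the subunit REL by -1.43 (SE 0.08, adjusted p = 1.4e-13). The adhesion molecule MCAM differed by 1.23 (SE 0.18, adjusted p = 5.6e-06). CDC37, a gene near ICAM3, differed by 0.42 (SE 0.08, adjusted p = 6.9e-05). Its rise in OCI-Ly1 was small (0.15, adjusted p = 0.03) and lost its call in 5 of 14 alternatives, those without OCI-Ly1 DMSO library 1 or 3 or without 500 nM library 1 or 2 (adjusted p = 0.087 to 0.15) and that on centred TPM (0.42).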

How the results depend on the processing

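Over 167 gene results and 2457 alternative fits of them, 2270 kept direction and side of the threshold, 129 lost the call, 34 gained one, and 24 turned sign where a call was involved; a further 126 turned sign with no call in either. The 24 were all on uncentred TPM. In TMD8 at 500 nM the values on log2(TPM + 1) and log2(TPM + 0.1) were -0.16 and -0.17 for CD48, -0.11 and -0.12 for CD86, -0.32 and -0.34 for CD58, -0.30 and -0.30 for CD83, -0.050 and -0.076 for ICAM5, -0.36 and -0.37 for TNFAIP3 and -0.23 and -0.24 for TYK2. For the line difference at 500 nM they were 0.10 and 0.10 for CD48, 0.35 and 0.39 for ICAM3 and 0.47 and 0.48 for CD40, and between untreated lines 0.64 and 0.65 for CD48 and 0.13 and 0.14 for CD86. The log2(TPM + 1) medians over all genes were -0.22 in TMD8 at 500 nM, 0.38 for that line difference and 0.61 between untreated lines. The cause of the turns was not tested.

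The 1 of 10 genes called in OCI-Ly1 at 150 nM became 0 on log2(TPM + 1), centred or not, and with the compared groups alone, and was 0 to 1 with a library left out. Other counts of the 10 moved on TPM: in TMD8 from 7 to 4 (150 nM) and 8 to 5 (500 nM) with either pseudocount, from 4 to 1 between the TMD8 doses, and from 4 to 2 (log2(TPM + 1)) or 1 (log2(TPM + 0.1)) for the line difference at 150 nM. The count between the TMD8 doses was 2 to 4 with a library left out, 2 without 500 nM library 1 or 2.

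Of all genes, 139 were called in OCI-Ly1 at 150 nM, and 240 with DESeq2, 323 with no filter, 61 and 74 on log2(TPM + 1) and log2(TPM + 0.1), 50 on centred TPM, 81 with the compared groups alone and 65 to 339 with a library left out. With scaling by library size alone, the share of calls that were higher went from 51.6 to 64.0% in OCI-Ly1 at 500 nM, and in TMD8 from 43.5 to 60.5% (150 nM) and 49.4 to 59.4% (500 nM). On log2(TPM + 1) it was 71.9% in OCI-Ly1 and 18.8% in TMD8 at 500 nM, and 32.3% in OCI-Ly1 on centred TPM.

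Libraries with the same replicate number deviated together weakly at most: r was -0.05 to 0.15 in OCI-Ly1 and -0.05 to 0.14 in TMD8 over 9 pairs each, with 2 of 9 over 0.1. Pairs with different numbers lay somewhat lower, at -0.17 to 0.04 in OCI-Ly1 and -0.19 to 0.10 in TMD8. Deviations were taken from the group mean, so higher values for the same number force lower ones for different numbers. The gap is therefore no separate evidence. In OCI-Ly1 5 of 9 libraries, and in TMD8 4 of 9, correlated best with their own number. With the replicate number as a block, 159 genes were higher and 48 lower in OCI-Ly1 at 150 nM, and 4463 and 4152 at 500 nM. Without the block these counts were 117 and 22 at 150 nM, and 4330 and 4057 at 500 nM. Depth limits CD44, CD58 and ICAM1 in OCI-Ly1, where groups held few counts.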
